A study of Mus musculus with 3 samples.

Results

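Interferon regulatory factors were followed through 3 single-cell libraries of mouse glomeruli as the genes *Irf1*, *Irf2*, *Irf3*, *Irf4*, *Irf5*, *Irf7*, *Irf8* and *Irf9*. These are the 8 rows of the 32285 genes in the count tables whose symbols equal those names, and they were picked by name, with earlier results of these data known. Glomeruli were isolated from kidney with collagenase V, and RNA of single cells was read in droplets by a method that counts UMIs (unique molecular identifiers, 1 per captured RNA molecule) at the 3′ end of transcripts. There was 1 library of blank control mice, whose strain is not named for this experiment, 1 of MRL/lpr mice and 1 of MRL/lpr mice that had received hUC-MSCs. MRL/lpr mice carry the lpr mutation of *Fas*, develop lupus nephritis by themselves and stand as the model group in the labels, which the study names as MRL/lpr. They were taken as having nephritis at about 16 weeks of age. The hUC-MSCs are mesenchymal stem cells from human umbilical cord, given into a vein, and kidneys were compared on day 21 after treatment. How many mice went into a library is not stated, so a condition and its library cannot be told apart and no test between conditions was made.

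The family binds DNA through a shared amino-terminal domain and carries much of the transcription that interferons and innate sensors switch on. *Irf3* and *Irf7* are activated by kinases downstream of nucleic acid sensors and drive type I interferon genes, and *Irf9* is the DNA-binding part of the complex that answers type I interferon. *Irf1* is induced by interferon gamma, *Irf2* often opposes it at the same sites, *Irf5* acts downstream of Toll-like receptors, and *Irf4* and *Irf8* direct lymphocyte and myeloid development with partners such as PU.1.

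The promoters of *Irf1*, *Irf2* and *Irf8* are shown because they were the members with a match to a motif of these pathways, while *Irf1* and *Irf8* are also the factors that led most cell classes. The windows come from RefSeq on GRCm38.p6 and reach from 250 bases before to 50 bases after a start, and 11 windows were found for the 8 members. The letters TTCNNNGAA, the gamma-activated site (GAS), were found on either strand in 2726 of all 32851 windows, which is 8.30%. The core GAAANNGAAA, the form to which the family itself binds, was found in 1131 windows or 3.44%, and 149 windows or 0.454% held both. The 250 bases before the start are printed 5′ to 3′ on the strand of the gene, with matches in capitals, and lie at chr11:53769764-53770013 for *Irf1*, at chr8:46739495-46739744 for *Irf2* and at chr8:120736108-120736357 for *Irf8*, all on the plus strand.
Irf1: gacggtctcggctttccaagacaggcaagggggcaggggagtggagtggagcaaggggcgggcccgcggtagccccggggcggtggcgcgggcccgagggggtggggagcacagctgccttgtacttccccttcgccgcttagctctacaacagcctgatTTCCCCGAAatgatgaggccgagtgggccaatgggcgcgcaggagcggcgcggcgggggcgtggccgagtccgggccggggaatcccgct
Irf2: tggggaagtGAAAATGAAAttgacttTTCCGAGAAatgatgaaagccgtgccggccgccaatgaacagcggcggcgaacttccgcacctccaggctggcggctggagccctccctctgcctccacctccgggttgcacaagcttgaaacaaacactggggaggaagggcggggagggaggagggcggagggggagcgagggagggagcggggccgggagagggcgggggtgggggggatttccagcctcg
Irf8: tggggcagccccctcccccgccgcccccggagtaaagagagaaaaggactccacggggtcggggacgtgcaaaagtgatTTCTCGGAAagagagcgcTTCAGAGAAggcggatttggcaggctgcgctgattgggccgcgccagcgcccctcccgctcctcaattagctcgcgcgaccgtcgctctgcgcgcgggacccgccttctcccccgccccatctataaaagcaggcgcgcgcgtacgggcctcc

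*Irf1* held 1 GAS match, TTCCCCGAA, from base -90 to -82 before its start. *Irf2* held TTCCGAGAA from -224 to -216 and, beside it, the family's own core GAAAATGAAA from -241 to -232. *Irf8* held 2 GAS matches, TTCTCGGAA from -171 to -163 and TTCAGAGAA from -153 to -145. The windows of *Irf3*, *Irf4*, *Irf5*, *Irf7* and *Irf9* did not hold these letters. Neither did a further window of *Irf1*, at chr11:53770223-53770522, nor a further window of *Irf8*, at chr8:120738389-120738688. The windows of *Irf9*, at chr14:55603735-55604034 and chr14:55604329-55604628, lie inside the gene model given below. The bases before the start of that model were not searched. A match describes the letters only, and binding was not measured here.

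In GENCODE M21, on the same build, all 8 members are protein-coding genes. *Irf1* (ENSMUSG00000018899) lies at chr11:53770014-53778374 on the plus strand. *Irf2* and *Irf8* share chromosome 8, at chr8:46739732-46847458 and chr8:120736358-120756694. *Irf3* and *Irf7* share chromosome 7, at chr7:44997648-45002848 on the plus strand and chr7:141262706-141266481 on the minus strand. *Irf4* lies at chr13:30749226-30766976, *Irf5* at chr6:29526625-29541871 and *Irf9* at chr14:55603571-55610030. The start of *Irf9* overlaps *Rnf31* on the same strand, and *Irf8* lies inside the long model *Gm20388*, which is not among the genes of the tables.

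The libraries held between 90812138 and 103319588 UMIs. Barcodes with at least 1000 UMIs and at most 10% mitochondrial UMIs were kept, which left 11018 in control, 14109 in MRL/lpr and 16586 in treated mice, with median depths of 5069, 3716 and 2727 UMIs. A kept barcode took a class from marker genes, none of which is a member, and classes are called X-like. Endothelial-like cells were most numerous in each library (5326, 4153 and 5383). Mesangial/stromal-like cells numbered 1081, 1785 and 1908 and podocyte-like cells 2436, 913 and 190. Immune cells were few in control mice, with 58 monocyte-like and 6 macrophage-like cells against 793 and 622 in MRL/lpr mice, and any comparison of immune classes with control rests on few cells. Of markers kept out of the gate, *Plvap* was not higher in endothelial-like cells and *Fscn1* was not higher in conventional dendritic cell (DC)-like cells, and *Actg2* had 0 UMIs in smooth muscle/renin-like cells. Of the kept barcodes, 35 were shared by control and MRL/lpr mice, 39 by control and treated mice and 61 by both MRL/lpr libraries. *Fas* was at 377, 432 and 425 CPM (UMIs per 1000000) in endothelial-like cells, and at 111, 165 and 104 in T cell-like cells. The lpr mutation interrupts the *Fas* transcript, but *Fas* was not lower in untreated MRL/lpr than in control mice in either class. As a check, *Fas* therefore did not bear out the label, and the reason was not tested. The immune cells counted above were more numerous in the MRL/lpr library. Control and MRL/lpr stand throughout for the libraries so labelled.

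Levels are given as CPM, the UMIs of a gene per 1000000 UMIs of its class in a library, with exact 95% Poisson intervals, and ratios carry exact conditional binomial intervals. A 3′ library counts 1 UMI per captured molecule whatever the length of the transcript, so no length scale was used. How well each gene was captured was not measured, and ranks of members are ranks of counted molecules. All intervals cover counting error only and say nothing of the spread between mice. Values are given in the order control, MRL/lpr, treated MRL/lpr unless stated otherwise.

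*Irf1* had the most UMIs of the family. It held 167765 UMIs in the kept barcodes, against 26194 of *Irf2*, 23161 of *Irf7*, 16297 of *Irf8*, 15304 of *Irf9*, 8140 of *Irf3*, 2943 of *Irf5* and 245 of *Irf4*. Among the 35 class-by-library sums with at least 30 cells, *Irf1* led 26, *Irf8* led 7 and *Irf7* led 2, and the other 5 members led 0. In 4 of these sums the leading pair was not separated by its counting interval. These were T cell-like and erythroid-like cells of control mice, and podocyte-like and erythroid-like cells of treated mice, where *Irf7* and *Irf8* each had 12 erythroid UMIs. With free RNA, read from barcodes with very few UMIs, subtracted, *Irf1* led 20 sums and *Irf8* led 8. Outside endothelial-like and mesangial/stromal-like cells *Irf1* was mostly below its level in free RNA, which is given below. The part of free RNA in each lead was not tested.

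**Figure D1:**
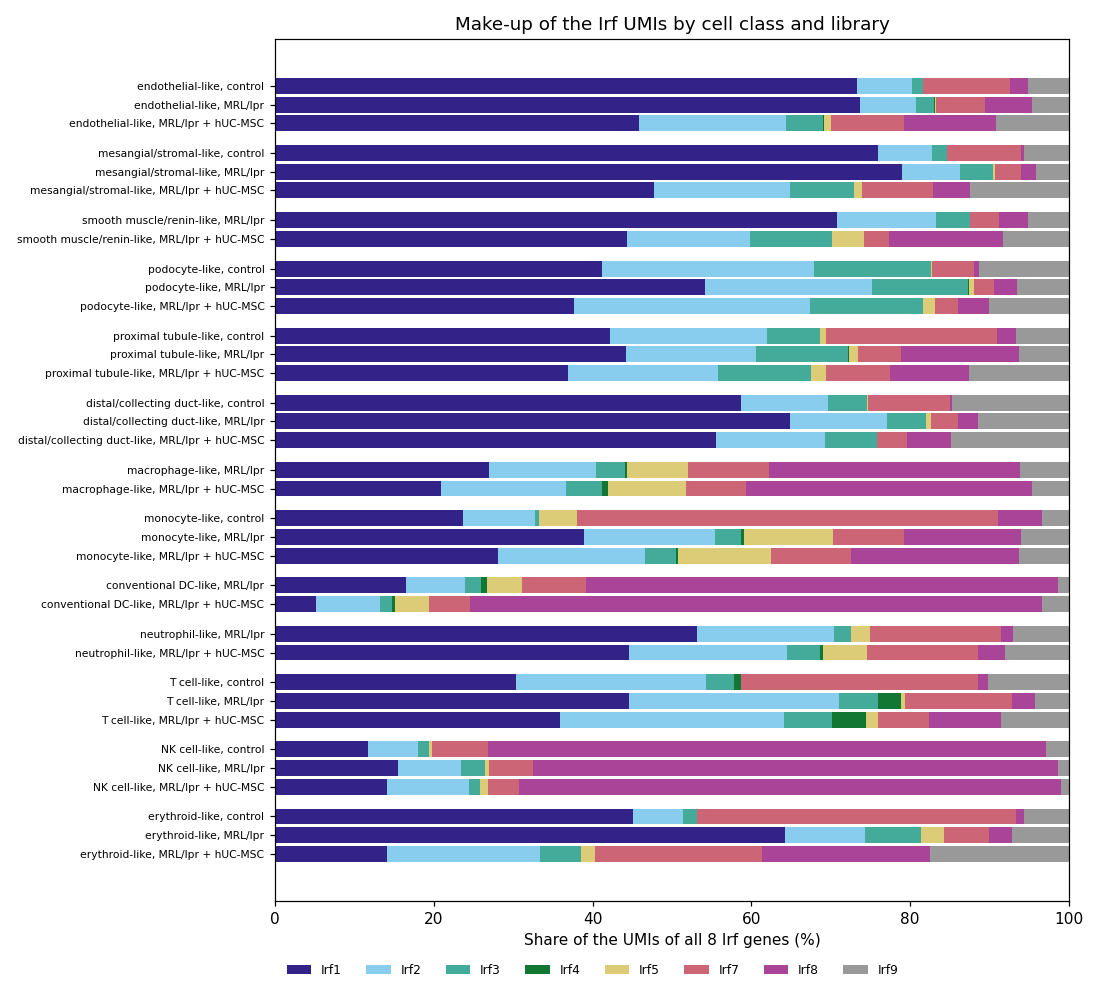
Share of each of the 8 members in the UMIs of the whole family (%, x axis), 1 bar per cell class and library with at least 30 cells. *Irf1* takes the largest part of the bars of resident kidney cells, up to 79.0% in mesangial/stromal-like cells of MRL/lpr mice, and *Irf8* takes 66.1% to 70.3% in NK cell-like cells.

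In endothelial-like cells *Irf1* was at 1898 (1882 to 1914), 1422 (1406 to 1439) and 365 (357 to 373) CPM. It was the most abundant member in all 3 libraries, with 73.3%, 73.7% and 45.8% of the family's UMIs. The whole family summed to 2589, 1931 and 796 CPM, so the treated library was the lowest. Mesangial/stromal-like cells had the same order, with *Irf1* at 1287, 994 and 218 CPM. Podocyte-like cells were lower and had another order, at 126, 204 and 97.6. *Irf2* was second there at 81.4, 79.6 and 76.9, and the pair was separated by its counting interval in control and MRL/lpr mice but not in treated mice. Barcodes with 1 to 100 UMIs, which hold free RNA, had *Irf1* at 715, 592 and 312 CPM, so only endothelial-like and mesangial/stromal-like cells stood above that level in control and MRL/lpr mice among classes with at least 30 cells, and in treated mice endothelial-like cells and, at 323, neutrophil-like cells did.

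Within MRL/lpr mice the level of *Irf1* was first in endothelial-like and second in mesangial/stromal-like cells, and no interval of another class reached theirs. Neutrophil-like cells at 524, smooth muscle/renin-like cells at 466, T cell-like cells at 394, monocyte-like cells at 349, distal/collecting duct-like cells at 302, NK cell-like cells at 279, macrophage-like cells at 221, conventional DC-like cells at 207 and podocyte-like cells at 204 came next. The intervals of neighbours in this run overlapped, except between monocyte-like and distal/collecting duct-like cells. That of NK cell-like cells, on 88 UMIs, reached from 223 to 343 and so overlapped several others. Proximal tubule-like cells at 121 and erythroid-like cells at 60.4 CPM were lowest.

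**Figure D2:**
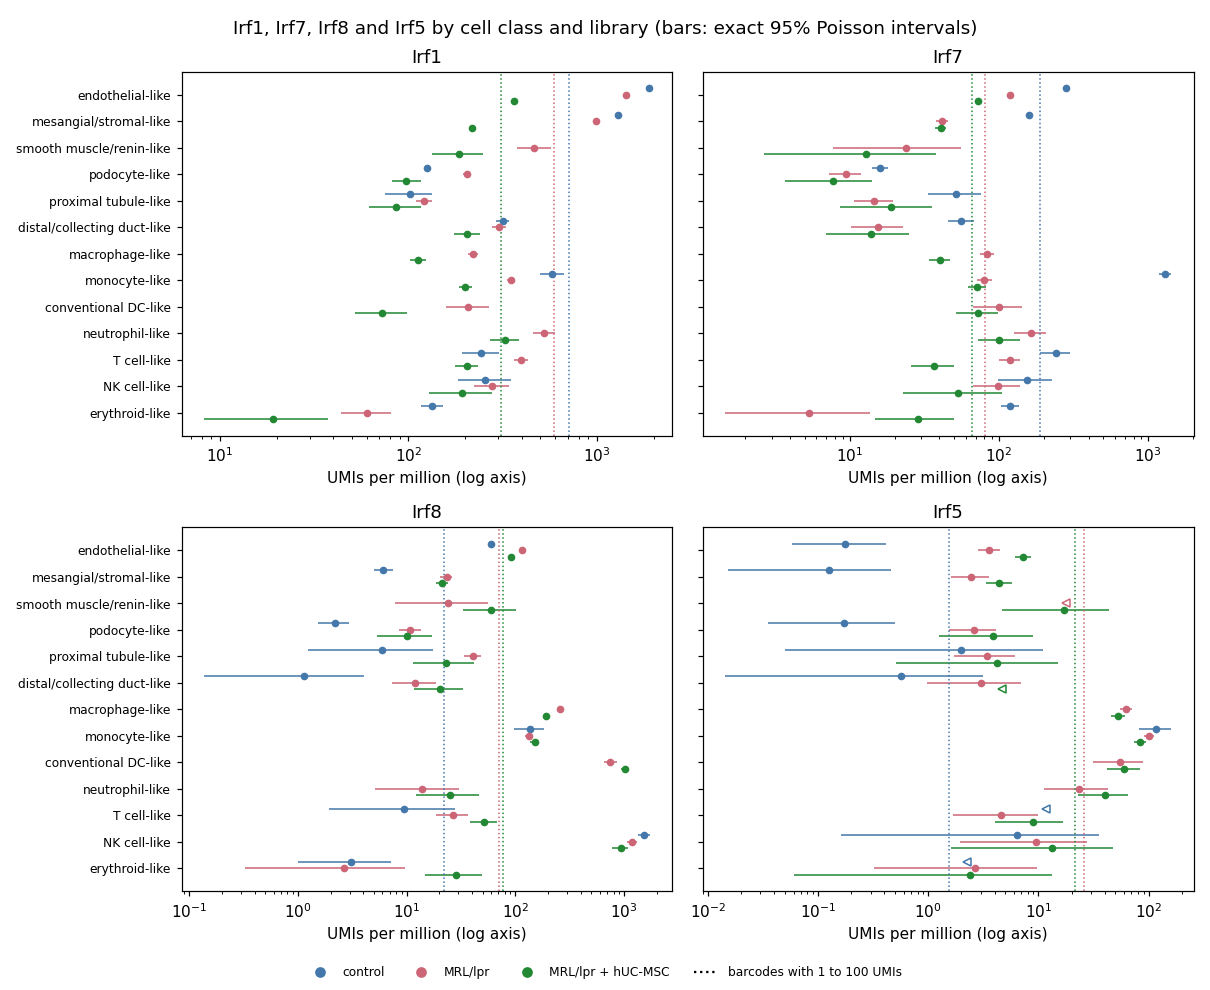
Level of *Irf1*, *Irf7*, *Irf8* and *Irf5* in CPM (log x axis) by cell class, with points for the 3 libraries and bars for exact 95% Poisson intervals. Open triangles mark the upper end of that interval where a class had 0 UMIs, and dotted lines mark barcodes with 1 to 100 UMIs. *Irf7* reached 1296 in monocyte-like cells of control mice against 80.1 and 71.4 in both MRL/lpr libraries, and *Irf8* was highest in NK cell-like and conventional DC-like cells.

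*Irf8*, which takes part in the development of DCs and monocytes, led the family in NK cell-like, conventional DC-like and macrophage-like cells. NK cell-like cells held 1530, 1187 and 931 CPM, from 52, 99 and 67 cells. Conventional DC-like cells held 746 in MRL/lpr and 1012 in treated mice, where *Irf8* made up 59.5% and 72.1% of the family. In macrophage-like cells it was at 259 and 193 CPM, with 31.7% and 36.0% of the family against 27.0% and 20.9% for *Irf1*. Monocyte-like cells had a nearly level 135, 133 and 150, and *Irf8* did not lead there. Endothelial-like cells also held *Irf8*, at 59.3, 116 and 92.1 CPM, while podocyte-like cells had 2.18, 10.9 and 9.99 and free RNA had 21.9, 70.5 and 76.5.

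The endothelial *Irf8* was looked at per cell. After each cell was thinned to 1000 UMIs, 5.46%, 11.1% and 9.12% of endothelial-like cells had an *Irf8* UMI, against 0.25% to 1.58% of podocyte-like cells, which serve as the background, and 80.8%, 64.6% and 61.2% of NK cell-like cells. Without thinning the shares were 22.3%, 35.3% and 25.3% in endothelial-like cells, at median depths of 4346, 3793 and 2732 UMIs, and 1.03%, 4.82% and 4.74% in podocyte-like cells, at 6756, 7278 and 6290.5 UMIs. Free RNA was estimated at 5.70%, 17.1% and 15.8% of endothelial-like UMIs and at 4.31%, 11.5% and 10.7% of podocyte-like UMIs. The background class thus held less free RNA than endothelial-like cells. Among endothelial-like cells with no UMI of 8 leukocyte genes, 4762, 632 and 281 cells, *Irf8* was at 59.2, 136 and 74.6 CPM. The genes were *Ptprc*, *Tyrobp*, *Fcer1g*, *Laptm5*, *Coro1a*, *Cd52*, *Lyz2* and *Cd74*. Cells with such a UMI numbered 564, 3521 and 5102, and the parts of *Cd74* and of depth in this split were not tested. Endothelial-like cells with a UMI of *Ehd3*, a gene of glomerular capillaries, held 61.2, 120 and 94.3, and those without held 17.6, 74.4 and 80.4. *Irf7* went the other way, at 273, 114 and 65.6 with *Ehd3* and 506, 156 and 110 without. Cells with a UMI of *Ehd3* were also deeper, with medians of 4410.5, 4035 and 3295 UMIs against 3224, 2379 and 1804, and the part of depth in these splits was not tested.

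*Irf5* stayed with myeloid cells. Monocyte-like cells held 116, 101 and 83.9 CPM and macrophage-like cells held 62.3 and 53.3 in the MRL/lpr libraries. Endothelial-like cells held 0.18, 3.58 and 7.26, below free RNA at 1.55, 26.0 and 21.4. *Irf4*, which acts in activated T cells and plasma cells, was the lowest member in total. T cell-like cells held 2, 34 and 24 of its UMIs, or 6.32, 25.8 and 23.7 CPM, and endothelial-like cells held 0, 7 and 11. In control mice 31 of the 36 UMIs in named classes, or 86.1%, came from 4 plasma-like cells. In MRL/lpr mice T cell-like cells held 34 of 69, with 10 in monocyte-like, 9 in macrophage-like and 3 in conventional DC-like cells. In treated mice T cell-like cells held 24 of 64 and macrophage-like cells 13.

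The remaining 3 members led no class. *Irf3* ranged from 5.53 to 45.0 CPM over the classes with at least 30 cells in control mice and was at 37.5, 43.6 and 37.4 in endothelial-like cells. *Irf2* was at 178, 138 and 148 there and highest in MRL/lpr mice in T cell-like cells, at 233. *Irf9* was at 133, 89.2 and 73.5 in endothelial-like cells, and no class of at least 30 cells was above these values in its library.

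MRL/lpr mice were set against control mice to ask how the family differed in nephritis. *Irf7* was lower in 9 of 9 classes in which it could be compared, with the counting interval below 0 in 8 of them. In free RNA *Irf7* was also lower, at 189 CPM in control and 80.5 in MRL/lpr mice. *Irf5* was higher in endothelial-like, mesangial/stromal-like and podocyte-like cells, the resident classes in which it could be compared, and *Irf8* in these and both tubule-like classes. In free RNA *Irf5* was at 1.55 and 26.0 CPM and *Irf8* at 21.9 and 70.5. *Irf9* was lower in 7 of 8 classes and *Irf1* had no single direction. A gene was compared where the libraries together held 20 or more of its UMIs, and a difference beyond 2-fold is given as past 2-fold.

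Apart from erythroid-like cells, where *Irf7* was at -4.47, its difference was largest in monocyte-like cells, at 1296 CPM in control and 80.1 in MRL/lpr mice. That is a log2 ratio of -4.02 (-4.23 to -3.80) or 16.2-fold lower, and *Irf7* was the leading member in control mice with 53.1% of the family. The control value rests on 58 cells. *Irf3* was higher by 1.26 on the log2 scale, on 4 control UMIs and with an interval that crossed 0, *Irf1* was lower at -0.73, and 2 of 7 members were past 2-fold, against 20% of all genes.

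In endothelial-like cells *Irf7* was at 283 and 118 CPM, a log2 ratio of -1.26 (-1.33 to -1.19). *Irf5* was at 4.34 on 5 and 74 UMIs, and these 2 of 7 members were past 2-fold against 19.0% of all genes. *Irf8* was near the limit at 0.97 (0.88 to 1.06), and it was past it at 1.02 to 1.20 under 6 of the other settings, of which 4 gave 3 of 7 members past 2-fold. *Irf1* was at -0.42 (-0.44 to -0.40), *Irf2* at -0.37, *Irf9* at -0.58 and *Irf3* at 0.22, with a median of 0.06 over all genes. The direction of *Irf1* turned to 0.44 where barcodes were limited to 5% ribosomal UMIs, which left 59 control and 43 MRL/lpr cells. That limit is among the filters that the methods of the study state. The 8 leukocyte genes were higher beside *Irf5* and *Irf8* in MRL/lpr over control endothelial-like cells, and their part in these ratios was not tested. The summed level of these genes in endothelial-like cells was 53.5, 1632 and 2576 CPM, and in free RNA 364, 4754 and 6453. Of that, *Cd74* alone gave 25.6, 1091 and 1199 in endothelial-like cells and 128, 1417 and 1634 in free RNA. The sum thus rests in large part on *Cd74*. Each of the 8 was higher past 2-fold in MRL/lpr than in control mice. Where endothelial-like cells lacked UMIs of the 8 genes, *Irf5* was at 0.16, 0.43 and 5.74 CPM on 4, 1 and 4 UMIs. In the same cells *Irf8* was at 59.2, 136 and 74.6 and *Irf7* at 285, 128 and 61.7.

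Mesangial/stromal-like cells had 3 of 7 members past 2-fold against 17.7% of all genes. *Irf7*, at 158 and 41.7 CPM, had a log2 ratio of -1.93, with *Irf8* at 1.93 and *Irf5* at 4.28 on 2 and 26 UMIs. Podocyte-like cells had 2 of 7 against 16.7%, with *Irf8* at 2.32 and *Irf5* at 3.92 on 3 and 18 UMIs. In those cells *Irf1* was higher, at 0.70 (0.60 to 0.80) and at 1.09 without barcodes scored as doublets, but its level was below that of free RNA. Of 15 immediate-early genes, which respond to handling of tissue, 11 were higher past 2-fold in the same cells, with a median of 1.45, and their part in the difference was not tested. *Irf7* was lower there, at -0.77. In both classes 8 of the 8 leukocyte genes were higher past 2-fold, with medians of 4.65 in mesangial/stromal-like and 5.01 in podocyte-like cells. The *Irf7* levels of both classes were below free RNA in control and MRL/lpr mice, with 41.7 and 9.40 CPM in MRL/lpr mice against 80.5 in free RNA. In MRL/lpr mice the levels of *Irf5* and *Irf8* in both classes were below those of free RNA as well, whose estimated part of the UMIs was 18.7% in mesangial/stromal-like and 11.5% in podocyte-like cells, against 11.6% and 4.31% in control mice. The part of free RNA and of leukocyte RNA in these ratios was not tested.

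T cell-like cells had 4 of 7 members past 2-fold against 20.8% of all genes, on 80 control cells. *Irf4* was at 2.03 (0.07 to 5.13) on 2 control UMIs and *Irf8* at 1.49 on 3, with an interval that crossed 0, while *Irf7* was at -1.02, from 240 and 118 CPM, and *Irf9* at -1.14. *Irf1* was higher at 0.70, beside 6 of the 15 immediate-early genes past 2-fold and a median of 0.44. Of the 8 leukocyte genes, 4 were higher past 2-fold in T cell-like cells, with a median of 1.65. Free RNA was estimated at 8.20% of their UMIs in control and 23.7% in MRL/lpr mice, and *Irf8* at 26.5 CPM was below the free RNA level of 70.5. The part of either in these ratios was not tested. In endothelial-like, podocyte-like and monocyte-like cells 2 of 7 lies near the share of all genes, and those counts are no result about the family.

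**Figure D3:**
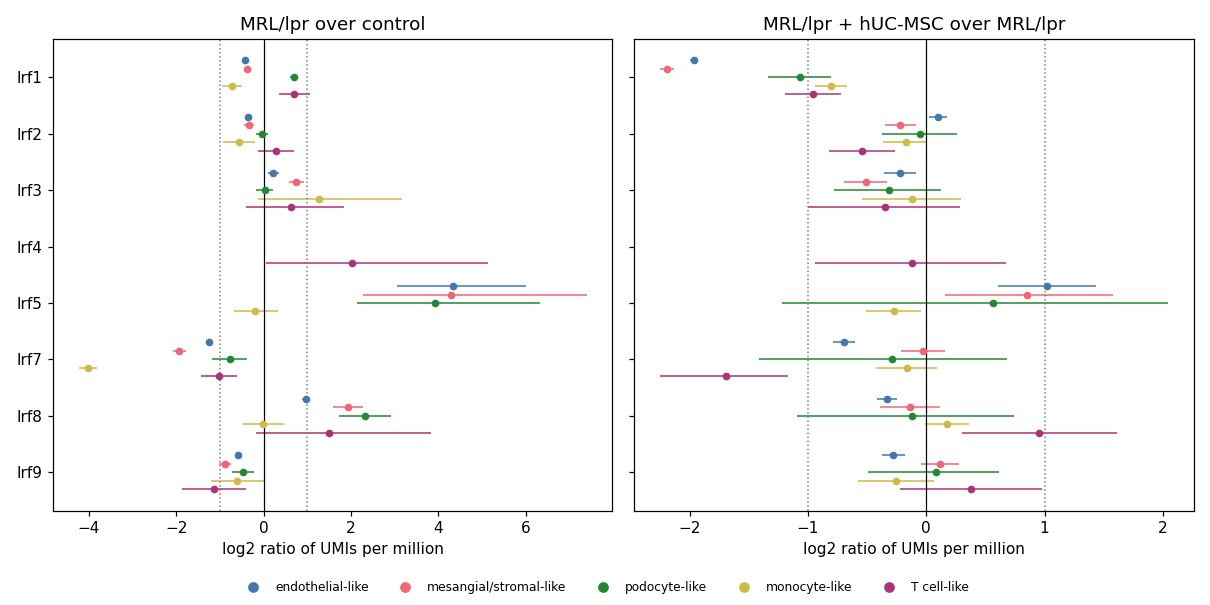
Log2 ratio of CPM (x axis) for each member in 5 cell classes, MRL/lpr over control (left) and treated over untreated MRL/lpr (right), with bars for exact conditional binomial 95% intervals and dotted lines at 2-fold. *Irf7* sits left of 0 in all 5 classes on the left, down to -4.02 in monocyte-like cells, and *Irf1* sits left of 0 in all 5 on the right, down to -2.19 in mesangial/stromal-like cells.

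Treated MRL/lpr mice were set against untreated ones to ask how the family differed after hUC-MSCs. *Irf1* was lower in 13 of 13 classes, from -2.19 in mesangial/stromal-like cells to -0.49 in proximal tubule-like cells, with the interval below 0 in 12. Its median over these classes was -0.98, and free RNA had 592 and 312 CPM. *Irf7* was lower in 10 of 11 classes, with 4 intervals below 0. Both comparisons use the untreated MRL/lpr library.

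In endothelial-like cells *Irf1* was 3.90-fold lower, a log2 ratio of -1.96, and *Irf5* was at 1.02, so 2 of 7 members were past 2-fold against 11.6% of all genes. With at least 2000 UMIs or centred on the median gene the count was 1, as *Irf5* was then no longer past 2-fold. With at most 5% ribosomal UMIs it was also 1, but *Irf5* and *Irf7* then had too few UMIs to be compared. The level of *Irf5*, 7.26 CPM in treated mice, was below free RNA at 21.4, and 7 of the 8 leukocyte genes were higher past 2-fold with a median of 1.30. Their part in it was not tested. *Irf7* was at -0.70, *Irf8* at -0.33, *Irf9* at -0.28, *Irf3* at -0.22 and *Irf2* at 0.10, where the median of all genes was 0.13. Among cells without leukocyte UMIs *Irf7* was at -1.05 and so past 2-fold, and the 2 members past it were *Irf1* and *Irf7*, as *Irf5* had too few UMIs there. In mesangial/stromal-like cells *Irf1* was 4.57-fold lower and the 1 of 7 members past 2-fold, against 10.1%. Podocyte-like cells, 190 in treated mice, had *Irf1* at -1.06 as their 1 of 7, against 8.32%.

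In immune cells the counts were also small. Macrophage-like cells had 1 of 8 members past 2-fold against 11.1% of all genes, which was *Irf7* at -1.05, next to *Irf1* and *Irf9* both at -0.98 and *Irf8* at -0.42. The median of all genes was -0.19 there, and *Irf8* was at -0.23 when centred on it. Monocyte-like cells had 0 of 7 against 5.78%, with *Irf1* at -0.81 and *Irf8* at 0.18 (-0.01 to 0.36). T cell-like cells had 1 of 7 against 14.2%, *Irf7* at -1.70, beside *Irf1* at -0.96 and *Irf8* at 0.95. There 8 of 8 leukocyte genes were higher, 4 of them past 2-fold, with a median of 0.75 against -0.19 for all genes, and the treated *Irf8* level of 51.3 CPM was below free RNA at 76.5. In conventional DC-like cells, 32 and 73, *Irf1* was at -1.52, *Irf8* at 0.44 (0.21 to 0.67) and *Irf9* at 1.47 on 5 UMIs in untreated mice, so 2 of 6 members were past 2-fold against 9.95% of all genes. Erythroid-like cells of the treated library stood apart, with a median of 1.24 over all genes and 110 cells, and they are among the 13 classes counted for *Irf1*. In mesangial/stromal-like, podocyte-like, macrophage-like, monocyte-like and T cell-like cells these counts lie near the share of all genes or below it.

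*Irf1* per endothelial-like cell shows the same difference. Thinned to 1000 UMIs, cells carried 1.76, 1.36 and 0.34 *Irf1* UMIs on average, and 30.8%, 34.7% and 74.0% of them carried 0. The share with at least 3 UMIs was 28.4%, 18.7% and 1.41%. Without thinning 90.1%, 89.2% and 54.3% had an *Irf1* UMI, and with it 69.2%, 65.3% and 26.0%. Podocyte-like cells after thinning were at 8.99%, 16.8% and 9.47%.

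**Figure D4:**
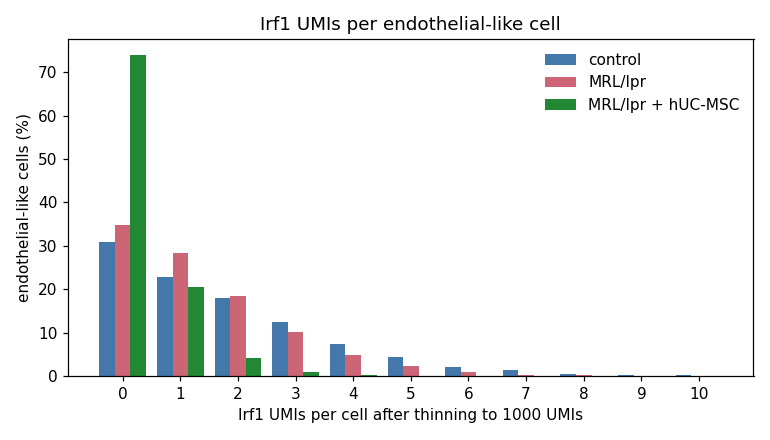
Share of endothelial-like cells (%, y axis) by the number of *Irf1* UMIs (x axis) after each cell was thinned to 1000 UMIs, for the 3 libraries. Treated cells pile up at 0 UMIs (74.0%), and control cells reach furthest to the right, with 28.4% at 3 UMIs or more.

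Immediate-early genes were lower beside *Irf1* in treated mice, to different extents, and the median of their ratios was below 0 in all 13 classes. Of 15 genes such as *Fos*, *Jun* and *Egr1* that respond to handling and dissociation of tissue, 15 were lower in treated endothelial-like cells, 12 of them past 2-fold, with a median of -1.30. Mesangial/stromal-like cells had 13 of 15 lower past 2-fold and a median of -1.81. In podocyte-like cells 10 of 15 and in T cell-like cells 7 of 15 were lower past 2-fold. All 15 were lower in NK cell-like cells (median -0.66), 14 in smooth muscle/renin-like (-0.86) and distal/collecting duct-like cells (-0.76), 13 in conventional DC-like cells (-0.61) and 12 in neutrophil-like cells (-0.59). The smaller differences were in macrophage-like cells, with 12 of 15 lower and a median of -0.31, and in monocyte-like cells, with 9 lower and -0.29. Proximal tubule-like cells had 8 lower and a median of -0.02. *Irf1* was at -0.98, -0.81 and -0.49 in these classes, where the medians of all genes were -0.19, -0.04 and -0.18. Relative to the median gene the list was thus not lower in proximal tubule-like cells. In erythroid-like cells 11 were lower, with a median of -0.21. The summed level of these genes in endothelial-like cells was 49202, 41460 and 17776 CPM. In MRL/lpr over control endothelial-like cells 0 of 15 were past 2-fold and the median was -0.08. Their part in the difference of *Irf1* was not tested.

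Genes around the family were read from lists chosen by name. In MRL/lpr over control endothelial-like cells, 1 of 15 upstream genes was past 2-fold, the kinase gene *Ikbke* at 3.37 on 9 control UMIs, while *Jak1* was lowest at -0.50. Of 11 partners and regulators, 4 were higher, *Spi1*, which encodes PU.1, at 4.78, *Ikzf1* at 2.24, *Batf* at 1.61 and its relative *Batf3*, and *Usp18*, an inhibitor of interferon signalling, was lower at -1.79. Of 15 targets, 3 were higher and 4 lower. The higher ones were *Cybb* at 5.03, *Ctss* at 4.10 and *Cxcl9* at 2.24, and the lower ones were the type I interferon targets *Ifit3* at -1.39, *Ifit1* at -1.34, *Isg15* at -1.17 and *Oas1a* at -1.05. Of all genes 13.4% were higher and 5.63% lower past 2-fold. *Spi1*, *Cybb* and *Ctss* are myeloid genes and were higher beside the leukocyte genes given above, whose part in these ratios was not tested. The median ratio was 0.29 for the upstream list, 0.56 for partners and 0.26 for targets, against 0.06 for all genes.

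Treated over untreated endothelial-like cells had 5 of 15 targets lower and 3 higher past 2-fold, against 4.36% and 7.27% of all genes, and a target median of -0.32 against 0.13. The lower ones were *Ifit1* at -2.33, *Isg15* at -1.89, *Cxcl10* at -1.76, *Ifit3* at -1.22 and *Rsad2* at -1.18. *Ctss* at 2.19, *Cxcl9* at 1.53 and *Cybb* at 1.42 were higher. Among upstream genes the adaptor gene *Myd88* was at -1.33 and *Ikbke* at 1.84, and among partners *Socs1*, which restrains JAK kinases, was at -1.43 and *Spi1* at 1.22. *Ctss*, *Cybb* and *Spi1* were higher beside the leukocyte genes in the treated library, whose part in these ratios was not tested.

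Endothelial-like cells with a UMI of *Cxcl10*, a chemokine gene of this pathway, were set beside those without one. *Irf1* was higher in the cells with a UMI by 0.69, 0.44 and 0.63 on the log2 scale. *Irf8* was higher by 0.81, 0.43 and 0.46 and *Irf7* by 0.36, 0.33 and 0.29, while *Irf2* was at 0.04, 0.08 and -0.03. Cells with *Cxcl10* were deeper, with medians of 5267.5, 5084.5 and 4633 UMIs against 4105, 3434 and 2535, and the part of depth was not tested.

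The genes whose pattern was most like a member were found by Pearson correlation of log2(CPM + 10) over 32 class-by-library sums with at least 50 cells. These sums share libraries and depth, and the correlation is a description. For *Irf1* they were *Nol10* (0.88), *Csrnp1*, *Junb*, *Ier2* and *Btg2* (0.86), for *Irf7* *Dtx3l* (0.82), *Trim30a*, *AC168977.1*, *Gm4070* and *Parp9*. For *Irf8* they were *Scimp* (0.88), *Pik3cb*, *Lat2*, *Disc1* and *Ulbp1*, and for *Irf4*, on 130 UMIs, *Tnfrsf4* (0.92), *4930417O13Rik*, *Cd3e*, *Cd5* and *Gm8369*. *Junb*, *Ier2* and *Btg2* are on the immediate-early list above, and *Dtx3l*, *Parp9* and *Trim30a* are interferon-induced genes. Among members, *Irf1* was most like *Irf9* (0.72).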

How the data were processed

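Glomerular cells of 3 mouse libraries, 1 per group, were analysed from the UMI counts per gene and barcode that the authors deposited before cells were called. The authors' processing notes name Cell Ranger, STAR and mm10, and the file header names Cell Ranger 4, while the methods name another version. Kept barcodes had at least 1000 UMIs and at most 10% mitochondrial UMIs, without the limits on genes and ribosomal UMIs that the study's methods also state, which were tried as alternatives. A class needed 3 UMIs of at least 2 of its markers, 10% of the scale set by its 100 richest barcodes and a lead of 2 over the other classes. Doublets stayed in and were removed with Scrublet as an alternative.

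Counts were summed per class and library. Levels have exact Poisson intervals, ratios exact conditional binomial ones and shares of cells exact binomial ones, all at 95%. With 1 library per group no test between conditions was made. The count behind a value sets its precision. A ratio needed 20 UMIs over both libraries, cells were thinned to 1000 UMIs, and free RNA came from barcodes with 1 to 100 UMIs. Only the ratio and its interval were tested on simulated data with known folds, drawn from the endothelial-like sums with counting error alone. The class gate, the thinning and the estimate of free RNA were not tested in this way. The other settings tried are given in the closing section.

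Named genes are the members, markers, overlapping genes, listed pathway genes past 2-fold or at the ends of their list, and the 5 genes most like *Irf1*, *Irf7*, *Irf8* and *Irf4*. The members and lists were chosen with earlier results of these data known. The leukocyte list and the immediate-early list were added after values had been seen, and *Fas*, *Ehd3* and *Cxcl10* as split or check genes were chosen likewise. Python 3.11.15, numpy 2.4.6, scipy 1.17.1, pandas 2.3.3 and scanpy 1.11.5 were used. An item withheld is not reported here.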

Additional observations from a re-analysis of the deposited data

Results flagged for a closer look

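Some members had ratios of opposite sign in 2 cell classes under the same comparison, with counting intervals on opposite sides of 0. With 1 library per group, the difference was not tested in any of these cases. In MRL/lpr over control, *Irf1* was at 0.70 in podocyte-like cells, beside 11 of 15 immediate-early genes higher past 2-fold, and -1.15 in erythroid-like cells, beside 7 of 15 lower past 2-fold. *Irf8* was at 3.40 in distal/collecting duct-like cells, on 2 control UMIs, and -0.37 in NK cell-like cells, where the median of all genes was -0.25. In the distal/collecting duct-like cells 8 of 8 leukocyte genes were higher past 2-fold, with a median of 4.89, and the MRL/lpr *Irf8* level of 12.0 CPM (UMIs per 1000000 UMIs) was below free RNA at 70.5. In treated over untreated MRL/lpr mice, *Irf2* was at 0.10 in endothelial-like and -0.54 in T cell-like cells, where the medians of all genes were 0.13 and -0.19, so relative to the median gene *Irf2* was not higher in endothelial-like cells. *Irf5* was at 1.02 in endothelial-like and -0.27 in monocyte-like cells. The endothelial level of *Irf5* was below free RNA, and 7 of 8 leukocyte genes were higher past 2-fold there. *Irf8* was at 0.95 in T cell-like and -0.42 in macrophage-like cells. In the T cell-like cells 8 of 8 leukocyte genes were higher, with a median of 0.75, and the treated *Irf8* level of 51.3 CPM was below free RNA at 76.5. *Irf9* was at 1.47 in conventional DC-like cells, on 5 UMIs in untreated mice, and -0.98 in macrophage-like cells.

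Of the kept barcodes, 483 in control, 1767 in MRL/lpr and 3927 in treated mice took no class, or 4.38%, 12.5% and 23.7%. Another 1026, 2307 and 2707 were mixed between classes. The comparisons use neither group, and the barcodes without a class also held myeloid members. *Irf5* was at 59.1 CPM in MRL/lpr and 55.8 in treated mice there, against 22.8 in control mice. *Irf8* was at 118 and 146, against 44.4 in control mice. *Irf1* led the family in these barcodes, at 487 CPM or 52.4% in MRL/lpr and 214 CPM or 31.6% in treated mice. There *Irf8* was second, whereas it led in macrophage-like cells.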

How the results depend on the processing

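Other settings gave these values. With at most 5% ribosomal UMIs, which left 59, 43 and 75 endothelial-like cells in control, MRL/lpr and treated mice, *Irf1* in MRL/lpr over control endothelial-like cells reversed from -0.42 to 0.44, *Irf1* in treated over untreated mice was -2.20 and *Irf7* in MRL/lpr over control was -2.16. That limit, one of the filters in the study's methods, gave 1 endothelial member past 2-fold in each comparison and left *Irf1* leading 11 sums and *Irf8* 0, and results of classes left with too few cells under it or another setting have no value. *Irf1* in MRL/lpr over control was -0.37 with 200 to 3000 genes, -0.37 as a mean over cells, -0.37 after thinning, -0.31 with free RNA subtracted, -0.48 centred on the median gene and -0.32 without leukocyte UMIs. In treated over untreated mice it was -1.92 with at least 2000 UMIs, -2.04 as a mean over cells, -2.01 after thinning, -2.09 with free RNA subtracted, -2.09 centred and -2.10 without leukocyte UMIs. *Irf7* in MRL/lpr over control was -1.38 after thinning and -1.15 without leukocyte UMIs, and in treated over untreated mice -0.83 centred and -1.05 without leukocyte UMIs, the last an alternative chosen after seeing the data. Members past 2-fold in treated endothelial-like cells were 1 with at least 2000 UMIs and 1 centred. *Irf8* in MRL/lpr over control endothelial-like cells, 0.97, ranged from 0.91 centred to 1.20 without leukocyte UMIs and was past 2-fold at 1.02 to 1.09 with 200 to 3000 genes, a larger lead, free RNA subtracted, a mean over cells and thinning, and members past 2-fold were 3 under the first 4 of these. The *Irf8* share in macrophage-like cells of MRL/lpr mice was 33.7% with a larger lead in the gate and 35.4% with free RNA subtracted. With free RNA subtracted *Irf1* led 20 sums and *Irf8* led 8, against 26 and 7 in the main setting. The causes were not tested, beyond the fewer cells named. Over all log2 ratios recomputed, 89 of 123 values stayed within their interval, 33 moved and 1 reversed. The values that stayed include some that a setting could not change. The leukocyte filter, for example, removed no macrophage-like or monocyte-like cells. No paired analysis was possible because each group has 1 library and the result comes from no test. Depth limits *Irf4* and *Irf5*, whose totals in resident cells of control mice were 0 to 5 UMIs per class.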
